A study of Mus musculus with 12 samples.

Results

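Gene deserts of the mouse autosomes held 375 H3K27me3 domains of 10 to 40 kb that were found in the epidermis of both WT and Utx-cKO mice. They were chosen by their place, width and overlap: WT peaks on chromosomes 1 to 19, at least 10 kb and under 40 kb wide, that overlapped a Utx-cKO peak by at least 1 bp, lay more than 50 kb from every protein-coding gene and lay more than 2 kb from every other annotated gene. They were 375 of 7826 WT peaks in all, where the Utx-cKO list had 8914, and of 4155 autosomal WT peaks with the same width that overlapped the Utx-cKO list. Width, overlap and position were therefore fixed by the choice and are given as description.

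H3K27me3, the trimethylation of histone H3 at lysine 27, is laid down by Polycomb repressive complex PRC2 and marks silenced genes, above all regulators of development in tissues that do not use them. Regions far from genes are known to contain distant enhancers of such regulators, and Polycomb domains are known to occur there as well as at promoters. Utx (Kdm6a), encoded on the X chromosome, removes the mark and is also part of a COMPASS-like complex at enhancers.

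CUT&RUN, where a nuclease tethered to an antibody cuts out the bound chromatin, was run on dissociated epidermis of females. WT animals were Cre-; Utx fl/fl and Utx-cKO animals were Cre+; Utx fl/fl, so both genotypes carried floxed Utx alleles, and Krt14-Cre, active in keratin-14 expressing tissue, deleted Utx in the latter. Each genotype had 3 H3K27me3 and 3 IgG libraries, 12 in all from 6 animals. The peak lists merged the animals of a genotype, so no value below has a replicate error, no test between genotypes could be made, and sequencing depth is unknown. Intervals are 95% intervals that cover counting error only, and neighbouring domains are not independent. None of 8 keratinocyte markers had a peak within 2 kb of a gene end in either list, among them Krt5, Krt14 and Trp63. Of the markers of other cells in the suspension, 2 of 5 melanocyte markers (Dct, Kit), 2 of 4 immune markers (Cd3e, Cd207) and 2 of 5 fibroblast and endothelial markers (Col1a1, Pdgfra) had one in both lists. Over all autosomal protein-coding genes 14.4% had one in WT and 15.7% in Utx-cKO. The markers are too few to compare cell types, and no such difference was tested.

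No genome sequence was used, so the sequence of the domains themselves is not shown. Some of the genes beside the strongest domains had a separate peak at the promoter in both lists, and such promoters can be shown. Parp8, Prag1, Insig2 and Brd7, also beside these domains, had no peak within 2 kb of a gene end in either list. The 4 promoters below, from RefSeq (GRCm38.p6), reach from 250 bases before to 50 after the start, and CpG dinucleotides, whose density is known to go with Polycomb recruitment, are in capitals. Isl1 encodes a LIM homeodomain factor of motor neurons and heart (chr13:116309639-116309938, minus strand). En1 encodes a homeodomain factor of the midbrain and the ventral limb (chr1:120602237-120602536, plus strand). Slitrk5 encodes a synaptic adhesion protein (chr14:111675777-111676076, plus strand). Nkd1 encodes an inhibitor of Wnt signalling (chr8:88527383-88527682, plus strand).
Isl1: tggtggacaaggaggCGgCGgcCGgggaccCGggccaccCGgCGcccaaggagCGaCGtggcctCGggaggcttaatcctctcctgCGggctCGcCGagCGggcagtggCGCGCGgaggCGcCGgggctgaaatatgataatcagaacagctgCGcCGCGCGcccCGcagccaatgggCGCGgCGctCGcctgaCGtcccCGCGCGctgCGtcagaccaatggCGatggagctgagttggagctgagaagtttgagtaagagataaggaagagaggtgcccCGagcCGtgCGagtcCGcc
En1: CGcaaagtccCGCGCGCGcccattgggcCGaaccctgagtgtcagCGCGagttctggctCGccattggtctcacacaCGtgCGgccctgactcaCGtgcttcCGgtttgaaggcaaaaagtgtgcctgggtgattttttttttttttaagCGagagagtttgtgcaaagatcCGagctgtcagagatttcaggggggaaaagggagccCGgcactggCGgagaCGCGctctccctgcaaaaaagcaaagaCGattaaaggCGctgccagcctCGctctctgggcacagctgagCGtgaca
Slitrk5: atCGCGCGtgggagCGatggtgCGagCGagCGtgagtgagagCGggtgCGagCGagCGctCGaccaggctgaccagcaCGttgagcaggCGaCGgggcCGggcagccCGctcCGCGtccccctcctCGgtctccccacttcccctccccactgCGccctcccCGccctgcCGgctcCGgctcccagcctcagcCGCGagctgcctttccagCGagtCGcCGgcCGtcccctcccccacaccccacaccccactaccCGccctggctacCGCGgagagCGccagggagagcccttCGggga
Nkd1: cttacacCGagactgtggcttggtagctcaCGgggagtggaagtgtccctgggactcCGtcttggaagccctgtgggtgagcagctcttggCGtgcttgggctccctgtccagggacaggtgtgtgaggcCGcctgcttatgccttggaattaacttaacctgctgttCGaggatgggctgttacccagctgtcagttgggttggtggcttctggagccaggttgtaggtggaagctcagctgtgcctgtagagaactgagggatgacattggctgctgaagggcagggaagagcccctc
The Isl1 promoter contained 37 CpG, as many as or more than all but 5.58% of 32851 promoters of the same length. The En1 promoter contained 23 and the Slitrk5 promoter 35, counts reached by 21.5% and 6.95% of promoters. Slitrk5 lay 3329956 bp from its desert domain, and Gpc5, on the other side of that domain, 51850 bp. The Gpc5 promoter, not shown, also had a peak in both lists and contained 17 CpG, a count reached by 31.4% of promoters. The Nkd1 promoter contained 6, which 56.4% of promoters reached. The motif CG reads the same on both strands, and the median promoter held 7. The peak over the Isl1 start was 34000 bp wide in WT and 33850 bp in Utx-cKO. It stood at percentile 99.3 of both lists by total signal, the coverage summed over a peak. The peak over the En1 start was 39400 bp wide in WT and 61000 bp in Utx-cKO, at percentiles 99.5 and 99.6. That at Slitrk5 stood at percentiles 83.0 and 77.3, and that at Nkd1 at 90.6 and 90.2.

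The strongest desert domain lay between Isl1 and Parp8 on chromosome 13 (chr13:116689401-116723150 in WT, chr13:116689651-116723650 in Utx-cKO). Its total signal was 588425 in WT and its maximum signal 81.8, at percentiles 97.7 and 99.3 of the WT list. The overlapping Utx-cKO peak stood at percentile 97.8 of its own list by total signal. It was 379712 bp from Isl1 and 127691 bp from Parp8, and 99.3% of it was covered in Utx-cKO. The scale of the signal is not given in the sources used here, so ranks are stated within each list, and ranks from lists of different lengths show no change.

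The next by total signal lay between Cldn23, a claudin of tight junctions, and Prag1 (chr8:35928651-35966000, total signal 389847, percentile 95.2 in WT and 94.5 in Utx-cKO). The third (chr14:115013101-115040350, percentiles 93.7 and 94.9) lay 51850 bp before Gpc5, a heparan sulfate proteoglycan of the cell surface, and ended 3320 bp short of the Mir17 hairpin, the first of the miR-17-92 cluster of cell cycle promoting microRNAs. Both mature forms of Mir17 are shown because this was the microRNA nearest to a desert domain, with the seed, bases 2 to 8, in capitals.
miR-17-5p: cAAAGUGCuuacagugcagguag
miR-17-3p: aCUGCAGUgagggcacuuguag
The fourth lay in the desert between En1 and Insig2, 557959 bp from En1 (chr1:121165951-121190150, percentiles 92.3 and 92.8). Its left border and its maximum fell on the same place in both lists, and 100% of it was covered in Utx-cKO. The fifth lay between Brd7, a bromodomain protein, and Nkd1 (chr8:88433451-88464150). It overlapped 2 Utx-cKO peaks that covered 91.2% of it. The ranks 6 to 10 lay beside Slc25a13 and Sem1 (98.0% covered), Lhfp and Nhlrc3 (100%), Eya1 and Msc (96.3%), Foxl1 and 1700018B08Rik (49.2%) and Prok2 and Rybp (100%). Eya1 is a transcriptional coactivator in organ formation, Msc a bHLH repressor of muscle genes, and Rybp a subunit of variant PRC1 complexes. All 7 desert domains above percentile 90 of the WT list stood at percentile 92.1 or above in the Utx-cKO list.

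**Figure D1:**
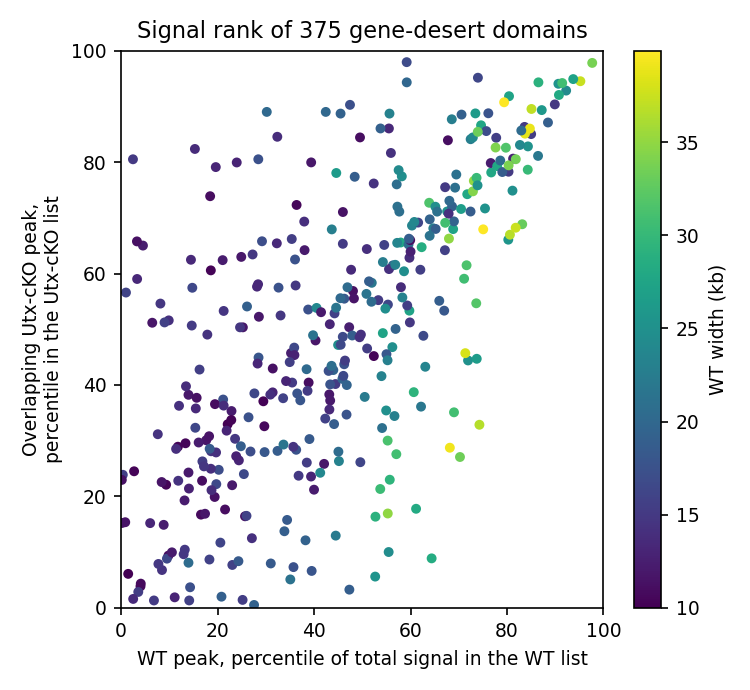
Each point is 1 of the 375 gene-desert domains. The x axis is its percentile of total signal in the WT list, the y axis the percentile of the strongest overlapping peak in the Utx-cKO list, and the colour its WT width in kb; the 7 domains above percentile 90 in WT are at or above percentile 92.1 in Utx-cKO, while weaker domains scatter widely.

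As a group the desert domains were of middling signal. Their total signal ran from 40333 to 588425 with a median of 67689, at percentile 45.0 (42.1 to 47.7) of the WT list. Maximum signal had a median of 12.7 and stood at percentile 45.8 (41.96 to 50.5). The overlapping Utx-cKO peaks had a median percentile of 50.4 (45.7 to 54.3) by total and 48.95 (45.8 to 53.9) by maximum signal. Among the 4155 peaks with the same width and overlap, 6.47% were in the top 10% of the WT list, and among the desert domains 7, or 1.87% (0.754 to 3.81%), were. In the lowest 10% were 29 (7.73%, 5.24 to 10.9%), beside 6.09%. The 1739 peaks at a protein-coding gene end, within 2 kb of it, had a median percentile of 69.2 (67.6 to 70.7). The 826 peaks inside such genes had 45.5 (43.2 to 48.2), the 902 within 50 kb of them 44.4 (41.3 to 47.2), and the 313 at noncoding genes or pseudogenes only 50.3 (46.5 to 54.1). The desert domains thus ranked below peaks at gene ends and in the same range as those inside genes or nearer to them, as a description without a test.

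Signal was less concentrated than at gene ends. The maximum was 3.17 times (3.10 to 3.28) the mean signal of the domain at the median, against 4.05 times (3.95 to 4.14) at gene ends and 3.35 times (3.30 to 3.42) inside genes. The maximum fell in the middle 50% of the width in 240 desert domains (64.0%, 58.9 to 68.9%), where 62.8% of all 4155 peaks had it.

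The extent of overlap between genotypes was near that of domains elsewhere. Utx-cKO peaks covered a median of 89.0% (85.8 to 92.4%) of a desert domain, with quartiles of 71.9% and 99.7% and a range of 3.80 to 100%. The medians were 93.3% at noncoding genes, 92.7% within 50 kb of protein-coding genes, 88.6% inside genes and 92.3% at gene ends. A Utx-cKO peak and the domain each covered at least 50% of the other for 299 of 375 (79.7%, 75.3 to 83.7%), beside 79.4% of the 4155. Without the demand for any overlap, these were 299 of 451 desert peaks, beside 68.2% of 4839 autosomal peaks. At least 80% both ways was reached by 156 (41.6%, 36.6 to 46.8%), beside 39.9%. Fully covered were 85 (22.7%, 18.5 to 27.2%), beside 26.9%. The desert shares were near those of all peaks chosen the same way. Before the overlap was required, 451 WT peaks met the limits of place and width, and 83.1% of them (79.4 to 86.5%) overlapped a Utx-cKO peak, beside 85.9% of 4839 autosomal peaks with this width.

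The maxima lay farther apart in deserts than at gene ends, as a description without a test. The maxima of both genotypes lay a median of 925 bp (750 to 1250) apart in desert domains and 300.0 bp (250 to 375) at gene ends. They lay within 1000 bp in 196 desert domains (52.3%, 47.1 to 57.4%), beside 59.7% of the 4155, and in 1169 of 1739 at gene ends (67.2%, 64.96 to 69.4%). Inside genes the share was 54.6% (51.1 to 58.0%), within 50 kb 53.8% (50.5 to 57.1%) and at noncoding genes only 57.5% (51.8 to 63.05%). Within 50 kb of protein-coding genes the median distance was 850 bp (725 to 1000), and inside genes 837.5 bp (700 to 950). At noncoding genes only it was 675 bp (450 to 900). In 20 desert domains the maxima were at the same place. Of the 94 desert domains with the highest total signal, 58 (61.7%, 51.1 to 71.5%) had maxima within 1000 bp, and of the 94 with the lowest 46 (48.9%, 38.5 to 59.5%) did. From the lowest to the highest of 4 ranges of signal, the shares were 48.9%, 50%, 48.4% and 61.7% in deserts and 55.6%, 51.3%, 65.1% and 73.3% at gene ends. In the second range they were close, and in the highest the gene-end interval was 70.5 to 76.0%. The part of signal in the difference between deserts and gene ends was not tested.

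**Figure D2:**
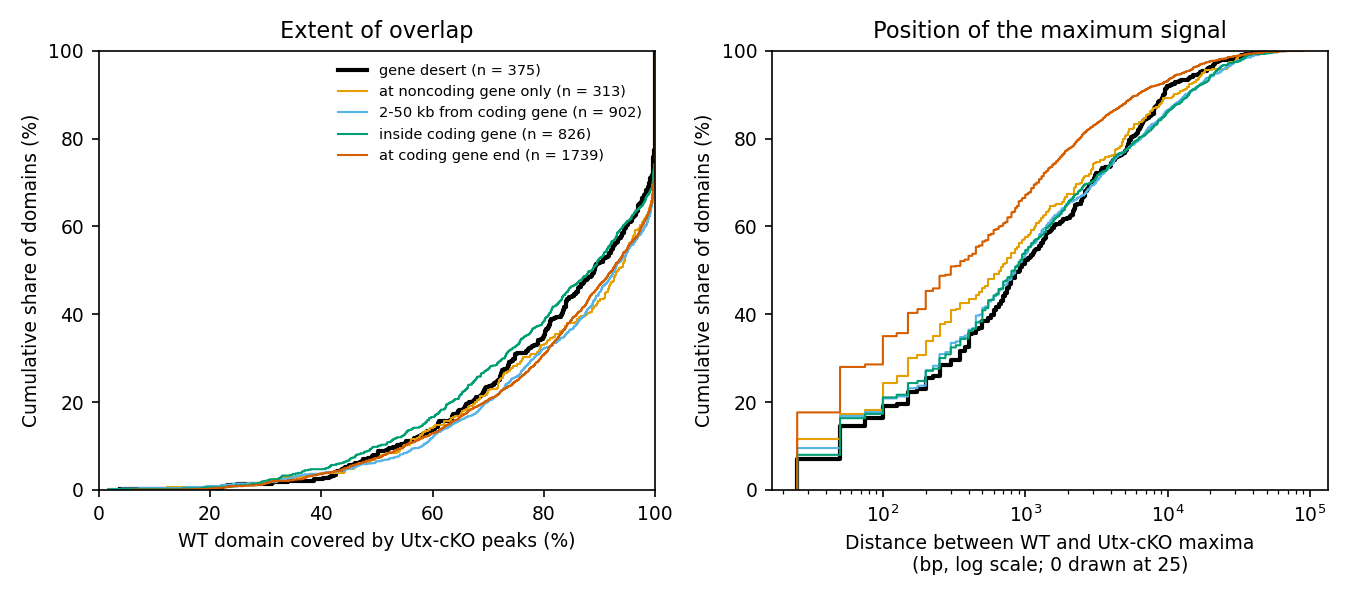
Cumulative share of domains (y axes, %) against the share of the WT domain covered by Utx-cKO peaks (left, %) and against the distance between the WT and Utx-cKO maxima (right, bp, log scale), for the 375 gene-desert domains (black) and 4 other classes of autosomal WT peaks with the same width. The curves of overlap run close together, with desert medians of 89.0% against 92.3% at gene ends, while maxima lie closer together at gene ends (median 300.0 bp against 925 bp).

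Borders differed in both directions. The summed width of the overlapping Utx-cKO peaks minus the WT width had a median of -100 bp (-550 to 100), with quartiles of -3550 and 3900 bp. It was positive for 178 desert domains (47.5%, 42.3 to 52.7%), beside 50.2% of the 4155, and negative for 192 (51.2%, 46.0 to 56.4%), beside 48.4%. Both borders lay outside the WT domain in 69 (18.4%), beside 20.2%, and inside it in 77 (20.5%), beside 19.4%. Both borders lay shifted the same way along the chromosome in 177 (47.2%, 42.1 to 52.4%), beside 43.2%. They were within 1000 bp of the WT borders in 66 (17.6%, 13.9 to 21.8%), beside 15.7%. The Utx-cKO width was greater by more than 10000 bp for 58 domains (15.5%, 12.0 to 19.5%), beside 16.4% of the 4155. It was smaller by more than 10000 bp for 23 (6.13%, 3.93 to 9.06%), beside 6.47%. These shares were near those of all peaks chosen the same way, but the WT widths were limited to the chosen range and those of Utx-cKO were not.

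Some of the domains that differed most between the lists are named here. How many of such domains lay beside developmental factors was not counted. The domain between Pitx1, a hindlimb homeodomain factor, and Macroh2a1 was 16800 bp wide in WT (chr13:55974601-55991400) and lay in a Utx-cKO peak 103200 bp wider (chr13:55872051-55992050). A 17350 bp domain beside Sox6 (chr7:115355451-115372800) lay in a Utx-cKO peak 41000 bp wider. These 2 were picked after their values were seen. The least covered domain, between Stxbp6 and Nova1, a neuronal splicing regulator, was covered over 3.80% (chr12:45157151-45183450), by a Utx-cKO peak that lay mostly to its left. Next came the domains between C330018D20Rik and Megf10, covered over 19.5%, and between Irx5 and Irx6 (chr8:92460951-92489400), covered over 22.1%. Those between Gm11677 and Sox9 (chr11:112049851-112068550) and between Mphosph6 and Cdh13 (chr8:117998451-118035050) were covered over 23.0% and 24.9%. The domain before Sox9 was nearer to Gm11677 (323549 bp) than to Sox9 (713659 bp). Beside Megf10 and Sox9 the Utx-cKO peak ran past 1 end of the WT domain. Beside Irx5 and Cdh13 it lay within the domain, at 1 end. Of the 85 domains covered over 100%, those between Gm765 and Foxp1 (chr6:98474151-98503200) and between Mbip and Nkx2-1 (chr12:56426601-56463650) had the maximum at the same place. Their Utx-cKO peaks were wider than the WT domains, by 28900 bp beside Foxp1 and 6150 bp beside Nkx2-1. The domain before Foxp1 was nearer to Gm765 (131396 bp) than to Foxp1 (422141 bp). Nkx2-1 encodes a homeodomain factor of lung, thyroid and forebrain.

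Splitting was rare, and fusing was counted only between desert domains. A desert domain overlapped 2 or more Utx-cKO peaks in 11 cases (2.93%, 1.47 to 5.19%), beside 3.97% of the 4155. The most broken was a 36700 bp domain between Evx1, a homeodomain factor next to the HoxA cluster, and Hibadh (chr6:52444751-52481450). It overlapped 3 Utx-cKO peaks that covered 74.5% of it. In the other direction, 12 desert domains shared a Utx-cKO peak with another, on 6 such peaks. Utx-cKO peaks that joined a desert domain to a WT peak of another class were not counted. No share over the 4155 was computed for fusing.

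Width ran from 10000 to 39900 bp with a median of 17050 bp (16100 to 18000) in WT and 17050 bp (15950 to 18350) in the summed Utx-cKO peaks. The widest domains were beside Sox9 and Slc39a11 (39900 bp), Plxnc1 and Cradd (39850 bp), Slc24a2 and Mllt3 (39200 bp), Rnf144b and Id4 (38900 bp) and Irx6 and Mmp2 (38650 bp). Their covered shares were 80.8%, 100%, 41.5%, 93.8% and 97.7%. The narrowest were beside Pced1b and Rpap3 (10000 bp), Icos and Pard3b (10100 bp), Cd109 and Col12a1 (10150 bp), Mki67 and Mgmt (10250 bp) and Ntm and Snx19 (10250 bp), covered over 84.0%, 97.5%, 96.6%, 79.5% and 88.8%. From narrow to wide in 4 steps of 93 or 94 domains, reciprocal overlap of 50% was reached by 81.9%, 90.4%, 77.4% and 69.1% of domains, with intervals of 72.6 to 89.1% in the narrowest and 58.8 to 78.3% in the widest step. At the limits, desert peaks of 9950 bp stood just outside, covered over 78.9%, 100% and 95.5%, and peaks of 40300, 46800 and 48400 bp stood just beyond the upper limit, covered over 100%, 100% and 31.8%. Domains 50056, 50084 and 50878 bp from a protein-coding gene were just inside, and peaks 49983, 49905 and 49731 bp away just outside. For other genes the nearest inside were 2002, 2049 and 2258 bp away and those outside 1913, 1841 and 1837 bp.

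The domains lay a median of 120713 bp (108686 to 137083) from the nearest protein-coding gene and 32939 bp (28139 to 38155) from any other gene. The farthest lay 1453558 bp from a protein-coding gene, in the desert of 3696666 bp between Zeb2, a repressor of epithelial genes, and Acvr2a, an activin receptor (chr2:47325451-47360550). It stood at percentile 73.1 in WT and 76.6 in Utx-cKO and was 95.7% covered. The next were beside Mctp2 (662576 bp), Sall3 and Galr1 (653379 bp), Dhx35 and Gm826 (652830 bp) and Igfbp3 and Tns3 (578252 bp), covered over 61.0%, 100%, 100% and 63.5%. Signal was at a like level at all distances. The median percentile was 44.6 (36.1 to 53.7) at 50 to 100 kb, 44.6 (36.2 to 50.5) at 100 to 200 kb and 45.7 (40.3 to 52.4) beyond. The nearest other gene was a lncRNA for 248 domains, a pseudogene for 89, a small nucleolar RNA for 20 and a microRNA for 7. No gene of any kind lay within 100 kb of 40 domains.

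Gene deserts were less covered than the rest of the autosomes. Bases beyond the chosen distances from genes made up 722 Mb, 29.7% of the autosomal span between the first and last protein-coding genes. WT peaks of any width covered 2.36% of them and Utx-cKO peaks 2.60%, against 6.39% and 6.91% elsewhere. The 375 domains amounted to 0.519 per Mb of desert. Density was highest on chromosome 9, with 32 domains and 1.14 per Mb, followed by chromosomes 7 (0.919), 8 (0.878) and 13 (0.858). It was lowest on chromosome 17, with 3 domains and 0.116 per Mb, and chromosomes 16 (0.265), 10 (0.297) and 14 (0.326) were also low.

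**Figure D3:**
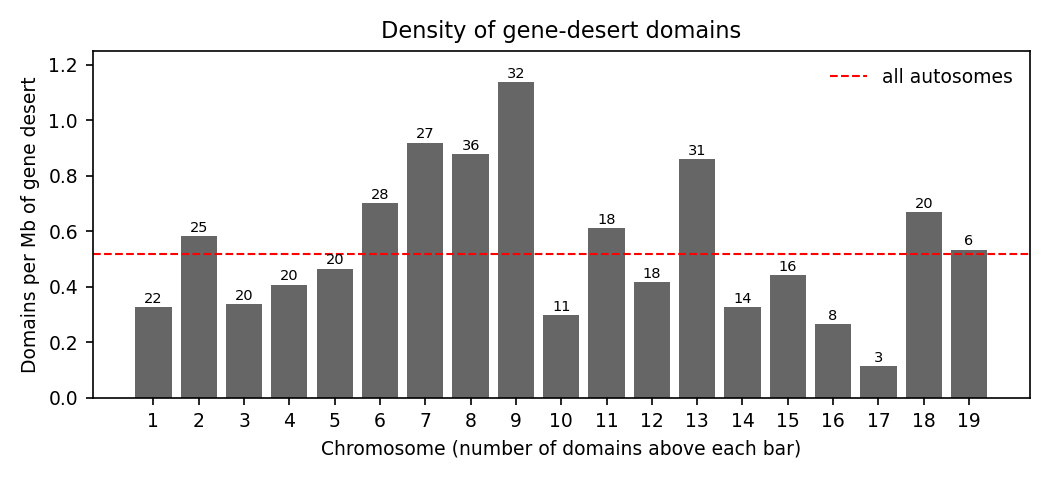
Gene-desert domains per Mb of desert (y axis) on each autosome (x axis), with the number of domains above each bar and the density over all autosomes as a dashed line. Chromosome 9 has 1.14 and chromosome 17 has 0.116 domains per Mb, around 0.519 for all autosomes.

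Most gaps that could hold a desert domain held none. Between neighbouring protein-coding genes, 2238 autosomal gaps of at least 110 kb could hold one, and 237 did (10.6%, 9.34 to 11.9%). A single domain lay in 161 gaps, 2 in 42, and 3 or more in 34. These last gaps held 130 of the 375 domains. Whether domains shared gaps more often than a random placement would give was not tested. The next WT peak of any class was a median of 28700 bp (24500 to 38150) away, and 139 domains (37.1%, 32.2 to 42.2%) had none within 50 kb, beside 36.6% of the 4155. A gap held a domain in 5.53% of cases at 110 to 250 kb, 12.4% at 250 to 500 kb and 22.4% at 500 to 1000 kb, but in 12.9% above that. Per Mb of desert, the density fell from 1.22 in the shortest gaps to 0.171 in the longest.

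A pair of gaps had 6 domains each, and 6 gaps tied with 5, of which that between Cldn23 and Prag1 was the shortest. Trps1, a GATA-type repressor of hair and cartilage growth, and Eif3h were 895931 bp apart with 6 domains, which had percentiles from 3.31 to 81.8 in WT and were covered over 52.9 to 98.4%. Its strongest was chr15:51657851-51691350, 33500 bp wide, 71.6% covered. The gap of 1178012 bp between Mki67, the proliferation marker Ki-67, and Mgmt, a DNA repair enzyme, also had 6, at percentiles from 0.134 to 53.3, covered over 77.9 to 93.9%. Neither of its genes had a peak at an end in either list. The gap between Cldn23 and Prag1 was only 268267 bp long and had 5 domains that took up 39.3% of it, at percentiles from 49.5 to 95.2. In that gap a Utx-cKO peak (chr8:35977151-36015950) joined 2 WT domains, covering 100% of chr8:35977451-36001400 and 60.1% of chr8:36009251-36020400. Peaks of any class took up 53.7% of this gap in WT and 54.2% in Utx-cKO. The shares were 29.8% and 31.7% for the Trps1 gap and 25.3% and 29.2% for the Mki67 gap, in the same order.

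**Figure D4:**
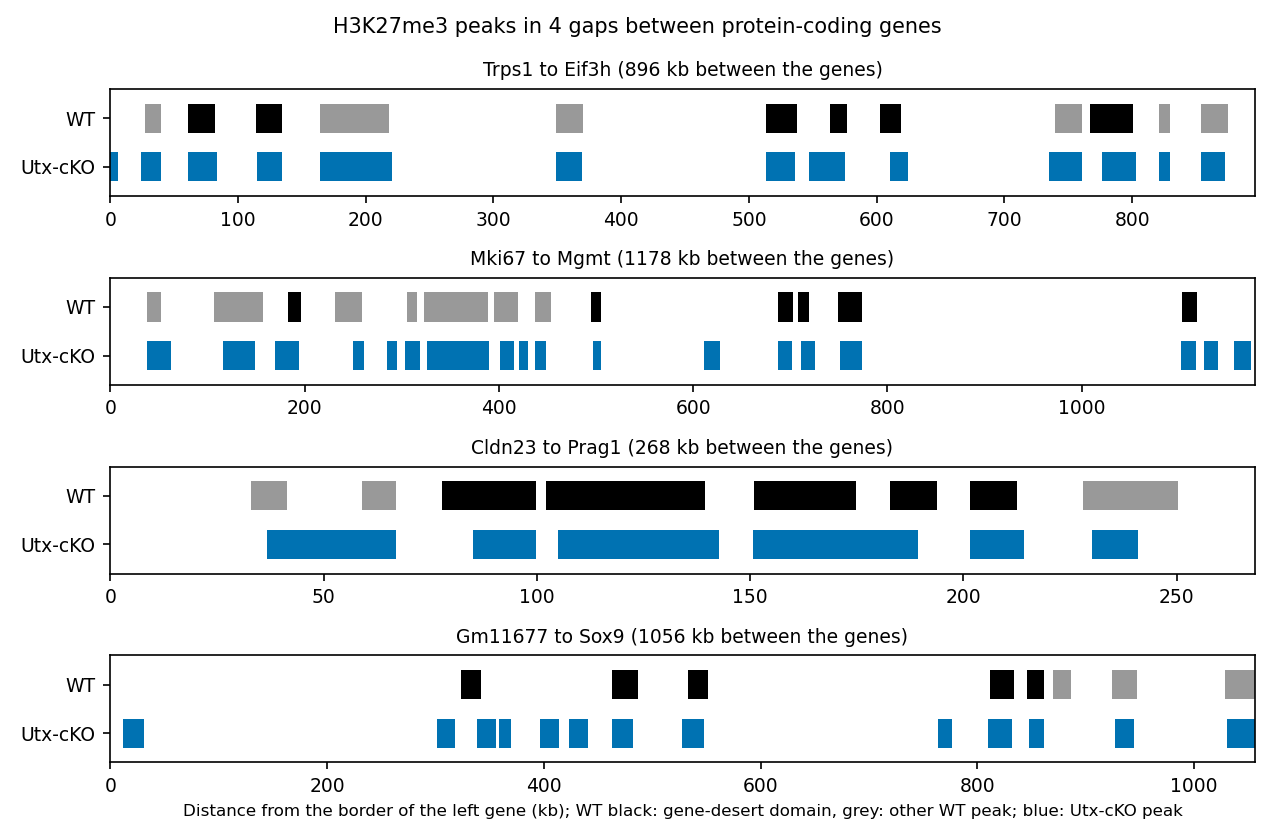
Peaks in both gaps with 6 gene-desert domains and in 2 of the 6 gaps with 5, that between Cldn23 and Prag1 and that before Sox9. The x axis is the distance in kb from the border of the left gene; WT peaks are in the upper rows (black for gene-desert domains, grey for other peaks) and Utx-cKO peaks in the lower rows (blue). Each black domain overlaps a Utx-cKO peak because the choice required it. In the gap between Cldn23 and Prag1 a Utx-cKO peak joins 2 of them.

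Deserts beside developmental transcription factors held many of the domains. The list of 242 such factors, 236 of them found on autosomes, had 156 members beside a gap that could hold a domain, and 52 of them (33.3%, 26.0 to 41.3%) flanked one. Of all 3714 protein-coding genes beside such gaps 458 (12.3%, 11.3 to 13.4%) did. The factors flanked 93 of the 375 domains (24.8%, 20.5 to 29.5%), and the density beside them was 1.28 per Mb against 0.434 in gaps with none. A gap beside a listed factor held a domain in 55 of 203 cases (27.1%, 21.1 to 33.8%), and other gaps in 182 of 2035 (8.94%, 7.74 to 10.3%). By gap length the shares were 17.8% against 4.66% at 110 to 250 kb, 20% against 11.8% at 250 to 500 kb, 33.3% against 20% at 500 to 1000 kb and 46.7% against 8.44% above. The nearest protein-coding gene was a listed factor for 12% (8.89 to 15.7%) of desert domains. For peaks at noncoding genes only the share was 9.27% (6.29 to 13.0%), and the intervals overlapped. It was 7.76% at gene ends, 6.30% inside genes and 5.10% within 50 kb of genes. The list was written with earlier results of these peaks known, and these differences were not tested. It left out regulators such as Trps1 and Zeb2, so a gap with no listed factor can still lie beside a developmental regulator.

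**Figure D5:**
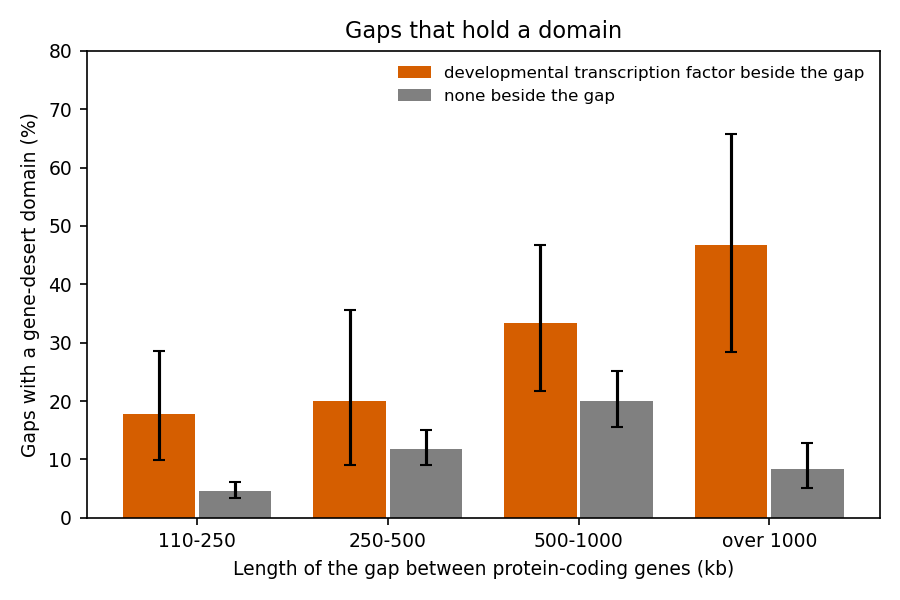
Share of gaps between neighbouring protein-coding genes that hold a gene-desert domain (y axis, %), by length of the gap (x axis, kb). Gaps with a listed developmental transcription factor on either side are in orange and those with no listed factor in grey. Bars start at 0 and error bars are exact 95% binomial intervals; the shares are higher beside the factors at each length, and the intervals overlap at 250 to 500 kb and 500 to 1000 kb.

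Sox9, which directs cartilage, testis and hair follicle stem cell fate, flanked most domains of any listed factor. It had 5 in the gap before it and 1 behind it. Those before it lay from 194659 to 713659 bp away, at WT percentiles from 42.3 to 59.7, and were covered over 79.8%, 80.7%, 93.3% and 84.5%, apart from the farthest with 23.0%. The peaks of this gap numbered 8 in WT and 13 in Utx-cKO, covering 15.8% and 22.0% of its length. The numbers were 12 and 13 in the Trps1 gap, 13 and 18 in the Mki67 gap and 8 and 6 in the Cldn23 gap. Id4, an inhibitor of bHLH factors, flanked 5 domains, at percentiles from 4.52 to 84.7. Isl1 flanked 4, of which that between Isl1 and Parp8 was described above, and the other 3 lay 282069, 312969 and 1056919 bp from it at percentiles 72.5, 29.7 and 71.1. They were covered over 97.6%, 100% and 46.1%. Tbx3, a T-box repressor of limb and mammary gland development, flanked 4 domains in the gap after Med13l (percentiles from 16.5 to 81.1, covered over 42.7 to 99.5%). Tshz1, a zinc finger factor of trunk patterning, also flanked 4, covered over 64.4 to 97.1%. Among those with 3 each were Foxp1, Gata6, Irx5, Irx6, Lhx5, Nkx6-1 and Sox2. The 93 domains beside listed factors had a median percentile of 54.8 (43.6 to 60.0), and the other 282, with no listed factor beside them, had 43.5 (38.4 to 46.1). Reciprocal overlap of 50% was found for 78.5% (68.8 to 86.3%) beside listed factors and 80.1% (75 to 84.6%) elsewhere.

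Other gene groups were beside fewer of the 375 domains than the developmental factors were. Their shares of genes that flanked a domain are read beside the 12.3% of all genes next to large gaps. Of 48 signalling genes beside large gaps 5 (10.4%, 3.47 to 22.7%) flanked a domain: Bmp4 with 3, Bmp2 and Fgf9 with 2 each, and Fgf20 and Shh with 1 each. The domain between Shh and Rnf32 (chr5:29024551-29041250) lay 557449 bp from Shh, stood at percentile 62.7 in WT and 48.8 in Utx-cKO, and was 69.5% covered. Of 78 genes of cadherins and synaptic adhesion 12 (15.4%, 8.21 to 25.3%) flanked one, with Nrp1, a semaphorin and VEGF receptor, beside 5 domains covered over 85.8 to 94.8% and Ntm beside 3. The adhesion share was above 12.3% and its interval included it, while density there was 0.142 per Mb against 0.519 over all gaps. Of 78 ion channel and neurotransmitter receptor genes 7 (8.97%, 3.68 to 17.6%) flanked one, among them Kcnj6 and Kcnj15, neighbours that share 3 domains. None of 13 epidermal differentiation and keratinocyte genes beside large gaps did, where 0 of 13 allows up to 24.7%. Of 13 melanocyte, immune and stromal genes 3 did (23.1%, 5.04 to 53.8%), namely Cdh5, Dcn and Ptprc with 1 domain each. The intervals of the signalling, channel and this last group also included 12.3%.

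Genes beside the desert domains often had a separate peak at their own ends. Of the 458 flanking genes 159 (34.7%, 30.4 to 39.3%) had a peak within 2 kb of an end in WT and 176 (38.4%, 34.0 to 43.1%) in Utx-cKO, 149 of them in both. Over all autosomal protein-coding genes, 14.4% had one in WT, and 15.7% did in Utx-cKO. Genes beside large gaps without a domain had 21.6% (20.2 to 23.1%) and 23.1% (21.6 to 24.6%). Of the 52 listed developmental factors beside a domain 38 had such a peak in each list, among them Sox9, Tbx3, Gata6, Lhx5, Sox2 and Nkx6-1. Id4, Foxp1 and Tshz1 were among those with none in either. The same share over all listed factors was not counted, so this count is not shown to be particular to factors beside a domain. Irx5 was listed with one in Utx-cKO alone and Runx1 in WT alone, a pair named after their values were seen. The richest listed promoter of a gene held a median of 23 CpG for genes beside a domain, 16 for genes beside other large gaps and 15 for all autosomal genes. Gaps held a domain in 6.99% (5.67 to 8.51%) of cases when neither gene had a peak in WT, 15.6% (13.2 to 18.4%) when 1 had and 16.2% (10.4 to 23.5%) when both had. The same shares by Utx-cKO peaks at the genes were 6.67%, 14.96% and 19.9%. By gap length and WT peaks, in the order neither, 1 and both, the shares were 3.31%, 9.09% and 7.58% at 110 to 250 kb. They were 8.92%, 16.9% and 22.2% at 250 to 500 kb, and 14.4%, 33.3% and 22.2% at 500 to 1000 kb. Above that they were 10%, 14.1% and 31.25%, with densities of 0.166, 0.162 and 0.266 per Mb. Where exactly 1 of the flanking genes had a peak in WT, 96 of 198 domains (48.5%, 41.3 to 55.7%) lay nearer to that gene.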

How the data were processed

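CUT&RUN for H3K27me3 and IgG was done on epidermal cells of 6 females, 3 per genotype. Per the file headers, the deposited lists are SEACR peaks (spelled SECAR there) called on data merged per genotype. The signal values, total and maximum coverage per peak, are the authors' own as deposited. On their scale and on the SEACR settings nothing is given in the sources used here, and depth is unknown. Per the submitters' processing notes, the tools were deepTools, bedtools 2.27.1, SAMtools 1.9 and Bowtie2 2.3.4.3, and the builds mm10, GRCm38 and sacCer3.

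Overlap was at least 1 bp. Percentiles are ranks within a list. Gene borders and promoters came from RefSeq GRCm38.p6, and a gene was marked by a peak within 2 kb of either end, since starts were listed for 16457 of 20665 autosomal protein-coding genes. Shares have exact Clopper-Pearson intervals and medians exact order-statistic intervals. Peaks at a gene end, inside a gene, within 50 kb and at noncoding genes only served for comparison, without tests. Base composition of the domains was not analysed. Functions were checked on simulated peaks (Python 3.11.15, SciPy 1.17.1, pandas 2.3.3). The members and 6 gene lists were chosen with earlier results of these data known. Named domains were those of highest signal, greatest distance, extreme width or coverage, the fullest gaps, and those at the limits (gaps tied in number by shorter length); genes were named from the lists by number of domains beside them.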

Additional observations from a re-analysis of the deposited data

How the results depend on the processing

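The share of domains with 50% reciprocal overlap stayed between 77.2% and 81.3% under every alternative apart from 80% of both peaks, which gave 41.6%. The number of domains was 222 beyond 100 kb of protein-coding genes, 688 with noncoding genes and pseudogenes ignored, 209 at 15 to 30 kb and 128 in the top 50% of each list, and within 1.5 times of 375 otherwise. At 15 to 30 kb the median covered share was 84.5%, the width difference -750 bp and the signal percentile 51.9. In the top 50% of each list they were 92.4%, 250 bp and 68.9, and the share beside developmental factors was 32.0%. That setting keeps strong peaks by construction. Starting from the Utx-cKO list gave 390 domains, covered over 95.3% by WT peaks. Maxima lay within 500 bp in 38.4% and within 2000 bp in 61.9%. The settings on a common signal floor, on maxima, on starts in place of gene ends and on developmental factors were chosen after seeing the data. Marking by listed starts gave 32.3% of flanking genes. No replicate could be left out, since the lists are merged. No paired analysis was possible because the lists merge the animals and no test was made. Depth is unknown, so weak domains missing from a list cannot be told from domains that are absent.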
